A study of Mus musculus with 2 samples.

Results

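T and NK lymphocytes were the cells of the mouse liver data set whose transcripts met 1 of 2 gene rules, and 162 of 15384 cells (1.05%, exact 95% interval 0.898 to 1.23) did so. A cell entered the T set when at least 3 of the 6 genes Trac, Trbc1, Trbc2, Cd3d, Cd3e and Cd3g had a count. Failing that, it entered the NK set when at least 3 of the 7 genes Ncr1, Gzma, Gzmb, Nkg7, Klrb1c, Klra8 and Prf1 had a count. Cells with more than 25% mitochondrial counts or any count of Cd209a, a dendritic cell gene, were left out. The T set held 91 cells and the NK set 71.

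Single-cell RNA sequencing was performed on immune cells sorted from the livers of 4 male mice and pooled in 1 library. The mice were told apart by hashtags, DNA barcodes carried by the streptavidin that bound a biotin-labelled CD45.2 antibody. The mice were an Egr2fl/fl mouse and a Lyz2Cre/+.Egr2fl/fl mouse on normal diet (ND), and 1 mouse of each genotype on CDA-HFD, a high-fat diet without choline in which defined amino acids replace protein and which induces steatohepatitis, for 7 weeks from an age of 6 to 12 weeks. All 4 mice carried the floxed Egr2 alleles, and Cre was driven by the Lyz2 locus, which is active in myeloid cells, so that the deletion was not aimed at lymphocytes. Each combination of genotype and diet was 1 mouse, and no difference between mice has a replicate check. The sort kept CD45.2+ CD11b+ cells that lacked CD90.2, B220, NK1.1 and SiglecF, and 3000 cells of each ND mouse and 9000 of each CDA-HFD mouse were loaded. Lymphocytes in these data are therefore cells that passed a gate meant to remove most of them, and their shares say nothing of lymphocyte numbers in the liver.

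T cells recognise antigen through a receptor whose α and β chains end in the constant regions encoded by Trac and by Trbc1 or Trbc2, and the chains signal through the CD3 subunits encoded by Cd3d, Cd3e and Cd3g. NK cells carry no such receptor, sense target cells through lectin-like receptors and Ncr1 (NKp46), and kill with perforin (Prf1) and granzymes. The liver holds circulating NK cells, known for Eomes and Itga2 (CD49b), and type 1 innate lymphoid cells (ILC1), known for Itga1 (CD49a), Cxcr6 and Tnfsf10 (TRAIL).

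Positions of rule genes are given in the mouse genome build GRCm38 with the GENCODE annotation. Trac is on chromosome 14 (54220521 to 54224206), Trbc1 and Trbc2 are on chromosome 6 (41538218 to 41539881 and 41546730 to 41548352), and Klra8 and Klrb1c also lie on chromosome 6 (130115226 to 130129898 and 128778485 to 128789215). Ncr1 (4337724 to 4345164) and Nkg7 (43437073 to 43438249) are on chromosome 7, Gzma on chromosome 13 (113093825 to 113100981), Gzmb on chromosome 14 (56258838 to 56262260) and Prf1 on chromosome 10 (61297833 to 61304680). Cd3g (44969572 to 44980431, minus strand) and Cd3d (44981786 to 44987339, plus strand) are neighbours on chromosome 9 that point away from each other with 1354 bases between their start sites. Their promoters are shown because the pair came apart in a group of cells described below. The RefSeq promoter windows (GRCm38.p6), 300 bases around each start, were chr9:44980382-44980681 on the minus strand for Cd3g and chr9:44981536-44981835 on the plus strand for Cd3d. Capitals mark matches on either strand to the E-box CAGGTG (reverse CACCTG) and to the GATA motif AGATAA (reverse TTATCT).
Cd3g: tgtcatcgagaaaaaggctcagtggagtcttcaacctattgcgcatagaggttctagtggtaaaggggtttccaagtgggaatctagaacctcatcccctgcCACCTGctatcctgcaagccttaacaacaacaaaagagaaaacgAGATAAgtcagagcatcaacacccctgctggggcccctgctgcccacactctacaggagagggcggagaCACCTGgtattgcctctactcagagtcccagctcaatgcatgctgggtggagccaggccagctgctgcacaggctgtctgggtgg
Cd3d: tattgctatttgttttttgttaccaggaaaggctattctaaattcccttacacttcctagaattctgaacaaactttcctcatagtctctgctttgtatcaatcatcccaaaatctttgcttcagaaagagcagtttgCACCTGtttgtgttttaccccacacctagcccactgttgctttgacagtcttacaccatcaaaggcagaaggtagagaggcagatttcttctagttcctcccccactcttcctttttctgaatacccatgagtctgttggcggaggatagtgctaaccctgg
The Cd3g window held 2 E-boxes and 1 GATA motif and the Cd3d window 1 E-box, while 20.2% and 11.2% of 32851 promoter windows of the same length held at least 1 match of the E-box and of the GATA motif. The Runx core TGTGGT (reverse ACCACA), present in 16.8% of windows, matched neither.

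In each mouse the lymphocytes were a small minority of the sorted cells, and both ND mice held larger shares than both CDA-HFD mice. The T set was 23 of 1723 cells (1.33%, exact 95% interval 0.848 to 2.00) in the ND Egr2fl/fl mouse and 30 of 1590 (1.89%, 1.28 to 2.68) in the ND Lyz2Cre/+.Egr2fl/fl mouse. On CDA-HFD it was 17 of 5885 (0.289%, 0.168 to 0.462) in the Egr2fl/fl mouse and 21 of 6186 (0.339%, 0.210 to 0.518) in the Lyz2Cre/+.Egr2fl/fl mouse. The intervals of the ND mice did not overlap those of the CDA-HFD mice. The NK set was 33 cells (1.92%, 1.32 to 2.68) in the ND Egr2fl/fl mouse, 6 (0.377%, 0.139 to 0.820) in the ND Lyz2Cre/+.Egr2fl/fl mouse, 18 (0.306%, 0.181 to 0.483) in the CDA-HFD Egr2fl/fl mouse and 14 (0.226%, 0.124 to 0.379) in the CDA-HFD Lyz2Cre/+.Egr2fl/fl mouse. By this rule the ND Egr2fl/fl mouse stood above the other 3 for NK cells, but with cells of both rules counted as NK, a setting chosen after seeing the data, the ND Lyz2Cre/+.Egr2fl/fl mouse was at 1.19% against 0.340% and 0.259% on CDA-HFD.

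**Figure D1:**
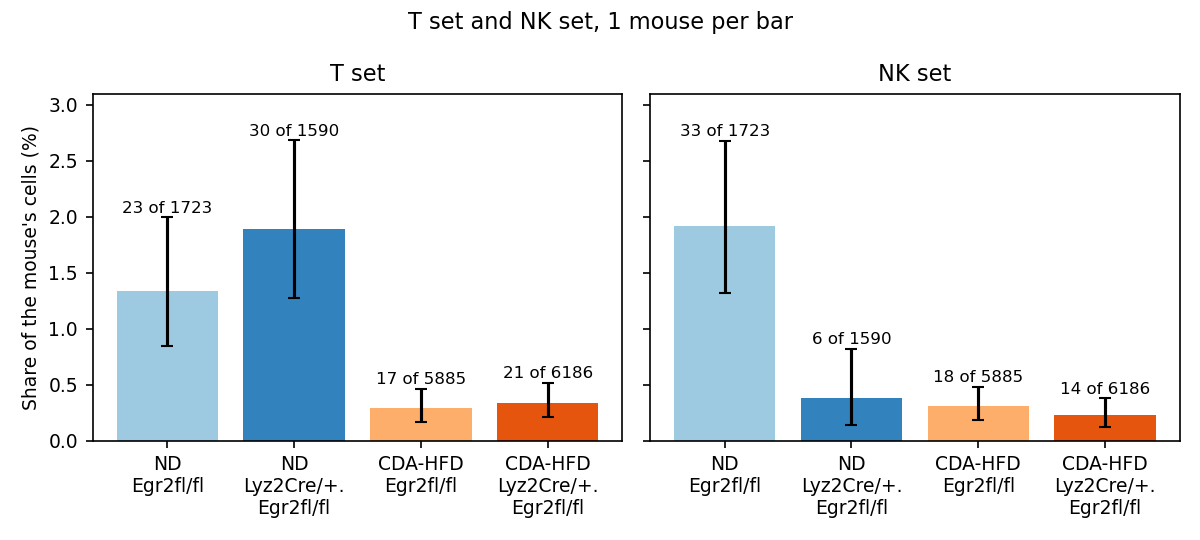
Share of each mouse's cells in the T set (left) and the NK set (right), in percent, 1 bar per mouse, with exact 95% intervals that cover counting error only. The T set was 1.33% and 1.89% in the ND mice against 0.289% and 0.339% in the CDA-HFD mice, and the NK set was highest, at 1.92%, in the ND Egr2fl/fl mouse.

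Between diets, the T set share was 1.05 percentage points lower on CDA-HFD in Egr2fl/fl (a difference of -1.05, Newcombe 95% interval -1.72 to -0.529) and differed by -1.55 points (-2.35 to -0.911) in Lyz2Cre/+.Egr2fl/fl. Without the 17 cells described below that pass both rules but have no Trac count, the differences were -0.640 (-1.23 to -0.207) and -0.918 (-1.61 to -0.399). The NK set share differed by -1.61 points (-2.38 to -0.990) between the diets in Egr2fl/fl and by -0.151 points (-0.605 to 0.133) in Lyz2Cre/+.Egr2fl/fl, where the interval held 0. That difference was -0.733 (-1.35 to -0.293) with at least 4 marker genes and -0.936 (-1.61 to -0.436) with cells of both rules counted as NK, and these intervals left out 0. Between genotypes, the NK set share on ND differed by -1.54 points (-2.34 to -0.798), Lyz2Cre/+.Egr2fl/fl minus Egr2fl/fl, and the T set share by 0.552 points (-0.348 to 1.48). On CDA-HFD the genotype differences were 0.0506 points (-0.166 to 0.266) for the T set and -0.0795 points (-0.284 to 0.118) for the NK set, both with 0 inside. Each of these intervals, like every interval given here, covers counting error only and not the spread between mice. A share also depends on how many myeloid cells entered the gate, and 1 mouse per group cannot tell diet from animal.

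Of the T set, 19 cells had exactly 3 of the 6 T genes and 36 had all 6, while 27 cells, in the NK set or in neither set, had exactly 2. Of the NK set, 2 cells had exactly 3 of the 7 NK genes and 23 had all 7, while 3 cells outside both sets had exactly 2. A further 38 cells passed a rule but held a Cd209a count, with a median of 19829 counts. The median total count was 8672 in the T set and 5767 in the NK set against 13740 in the other cells, and the median number of detected genes was 1811, 1485 and 2401. A cell's own hashtag made up a median of 94.8% of its hashtag counts in the T set and 94.3% in the NK set. No cell barcode was shared between mice.

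The genes of both rules were close to absent from other cells, which the rule in part fixes by taking out cells with 3 or more of either list. Values of rule genes here are a description. Expression is given as CPM, the counts of a gene summed over a group of cells and scaled to a total of 1000000 counts, beside the number of cells with a count. Neutrophils, 2410 cells with a median of 4500 counts that should lack these genes, had a count of Trac in 0.249% of cells, of Gzmb in 0.207% and of Klrb1c in 0.498%. In the T set Trac was counted in 68 of 91 cells (74.7%), and in the NK set in 2 of 71 (2.82%). Among genes that the rule had not used, Lck, the kinase that starts T-cell receptor signalling and is also found in NK cells, was counted in 80.2% of the T set, 64.8% of the NK set and 0.166% of neutrophils, and in 52.7%, 46.5% and 0.124% after each cell was thinned to 3000 counts. By the lowest of the 4 mice's ratios to the other cells, the leading genes outside the rule were Lck, Cxcr6, Il2rb, Thy1, Gimap3, Skap1, Lat, Zap70, Gimap7 and Sh2d2a in the T set. In the NK set they were Klra9, Klra7, Il2rb, Klra4, Ctsw, Xcl1, Klre1, Klra13-ps, Fasl and Cma1, of which Klra9, Klra7 and Klra4 encode Ly49 receptors for MHC class I and Ctsw a cathepsin of cytotoxic cells. These genes were chosen by their contrast with other cells and are a description. The Ly49 genes are near-identical copies, and counts can be split between them.

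Cells of both sets held transcripts of antigens against which the sort selected. Thy1, which encodes CD90, had a count in 70 of 91 T-set cells (76.9%) and in 25 of 71 NK-set cells (35.2%), against 0.456% of neutrophils. Klrb1c, the gene of the NK1.1 antigen, had a count in 69 of 71 NK-set cells, which the NK rule in part fixes, since it uses that gene. Itgam, the CD11b gene on which the sort was based, had a count in 34.1% of the T set, 62.0% of the NK set and 68.2% of the other cells, and at 3000 counts per cell in 15.4% of the T set and 45.1% of the NK set.

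The T set can be divided by the rule genes themselves, as drawn in the plot of T and NK genes counted in each cell. Of its 91 cells, 62 passed the T rule only and 29 also passed the NK rule. These 29 cells fell apart by Trac, a division made after the values were seen: Trac was counted in 12 and not in the other 17. The 17 cells without Trac also held no count of Cd3e, and had a Cd3d count in 3 cells, and 15 of the 17 had exactly 3 T genes, the minimum. They qualified through Trbc1 (17 of 17, 932 CPM), Trbc2 (17 of 17, 1186 CPM) and Cd3g (16 of 17, 2541 CPM), so that the divergent neighbours Cd3g and Cd3d were at 2541 and 119 CPM. In the 62 cells of the T rule only the same pair stood at 505 and 604 CPM. These are rule genes, and the pair is a description of cells chosen by them. In the NK set Trbc1 was counted in 48 of 71 cells (337 CPM), Cd3g in 3 and Trac in 2, which the rule in part fixes, since a cell with 3 T genes entered the T set.

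**Figure D2:**
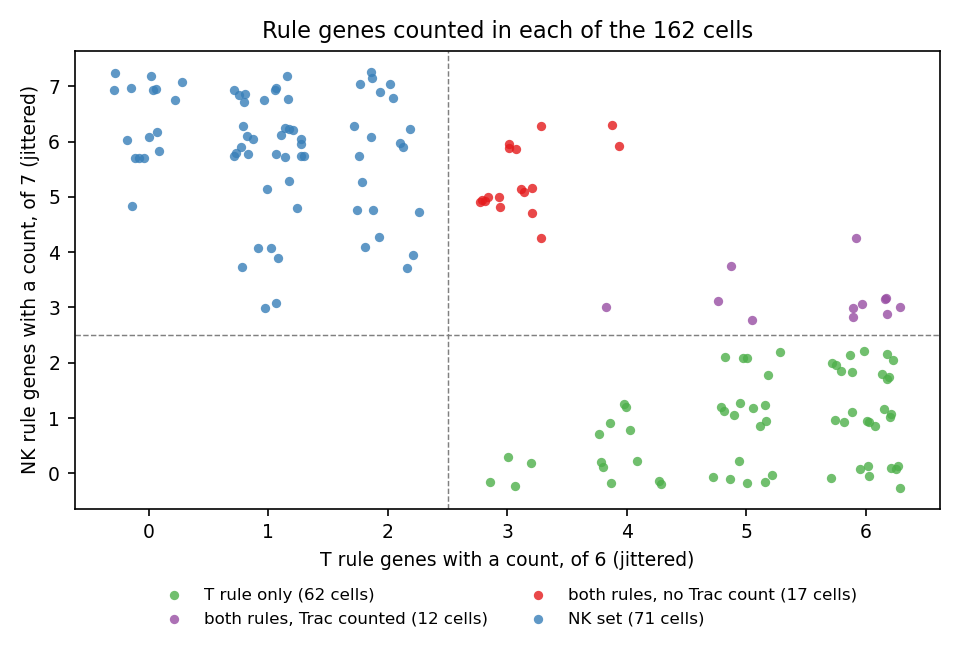
Number of T rule genes (horizontal axis, of 6) and NK rule genes (vertical axis, of 7) with a count in each of the 162 cells, jittered, with dashed lines just below the rule's minimum of 3. The 17 cells of both rules without a Trac count had 3 or 4 T genes and 4 to 6 NK genes, a place that the rule and the division by Trac in part fix.

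Counts of receptor V segments, which do not show whether a segment was rearranged, differed in kind between the sets. Of the Trbv segments in the matrix, 6 in all, at least 1 was counted in 14 of the 62 cells of the T rule only (22.6%), in 4 of the 12 cells of both rules with Trac and in 1 of the 17 without. Trav segments were counted in 4 of 62, 1 of 12 and 0 of 17 cells, and the exact interval of the 0 reached 19.5%. In the NK set Trav was at 0 of 71 and Trbv at 1 of 71, while a Trdv or Trgv segment was counted in 26 of 71 (36.6%), against 5 of the 62 cells of the T rule only. The δ-chain segment Trdv2-2 was counted in 18 of 71 cells (92.3 CPM) and the δ constant region Trdc in 13. Trdv2-2 was counted in 0 of 91 T-set cells and in 1 of 15222 other cells.

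The 17 cells are called here the both-rules cells without Trac, since T-cell genes outside the rule go against the label T for them. Cd5, Cd6 and Cd28 (a co-stimulatory receptor) were at 0 of 17 cells each, against 17, 22 and 23 of the 62 cells of the T rule only, and Thy1 was counted in 3 of 17 against 56 of 62. Values of rule genes in these cells are a description. Of 20 NK receptors and adaptors, rule genes among them, 3 were more than 2-fold higher in them than in the NK set, 6 were lower and 5 were at 0. Ncr1, a gene of the NK rule, was counted in 16 of 17 cells (678 CPM, NK set 817 CPM), Klrd1 (CD94) in 16 (1601 against 1080 CPM) and Klre1 in 14 (1016 against 911 CPM). Of 15 T cell markers, rule genes among them, 5 were more than 2-fold higher than in the NK set, 4 were lower and 6 were at 0. Of 12 NK maturation genes, 10 were more than 2-fold lower than in the NK set and 6 were at 0, among them Cma1 (0 against 389 CPM), Klrg1 (0 against 225 CPM) and S1pr5, a receptor by which NK cells leave tissue (0 against 108 CPM). Over all 4731 genes counted in 10% or more of these and the NK-set cells pooled, 20.7% were more than 2-fold lower and 14.4% higher, and the median log2 ratio was -2.86 for the maturation list and -0.09 for all genes.

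Of 14 ILC1-associated genes, 9 were more than 2-fold higher in the 17 cells than in the NK set and 1 was lower, with a median log2 ratio of 1.64. Xcl1, a chemokine that draws cross-presenting dendritic cells, stood at 4548 CPM (16 of 17 cells) against 1927 CPM (24 of 71), but 1 cell of the 17 held 273 of their 537 Xcl1 counts and 1 NK-set cell held 354. Cd7 stood at 3371 CPM (17 of 17) against 757 CPM. Tnfsf10 was at 449 CPM (13 of 17) against 28.1 CPM, Cxcr6 at 330 CPM (12 of 17) against 50.2 CPM, Itga1 at 254 CPM (8 of 17) against 28.1 CPM and Ltb, lymphotoxin β, at 813 CPM (16 of 17) against 120 CPM. Il7r was counted in 3 of 17 cells, and Zfp683, Rora and Hic1 in 0. The transcription factor Eomes was at 0 of 17 cells and in 29 of 71 NK-set cells (138 CPM), while Tbx21 (T-bet) was alike at 246 and 247 CPM. Among granzymes, Gzmb was at 5904 CPM (17 of 17) against 1861 CPM and Gzmc at 923 CPM (9 of 17) against 197 CPM, whereas Gzma was at 11113 against 10714 CPM. The Ly49 genes Klra8, Klra4 and Klra7 were at 0 of 17, and Klra9 was counted in 6. Since the group was divided after its values were seen and several of these genes belong to the rule, the contrast is a description.

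**Figure D3:**
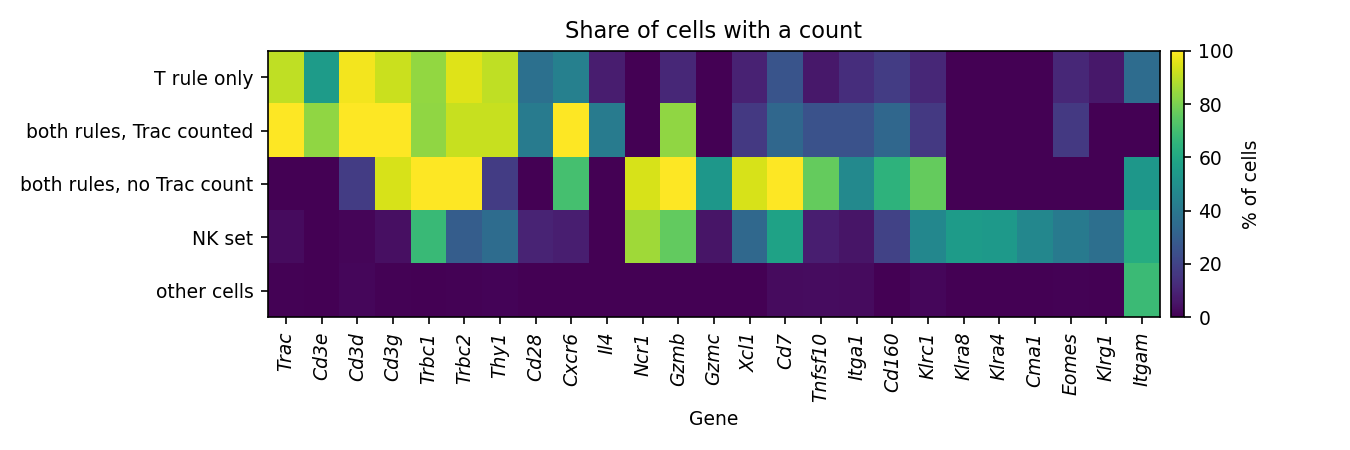
Share of cells with a count, in percent by colour, for 25 genes (columns) in the 3 groups of the T set, the NK set and all other cells (rows). The both-rules cells without Trac hold Ncr1 and Gzmb, as the NK set does, but lack Klra8, Klra4, Cma1 and Eomes, and hold Tnfsf10 in 13 of 17 cells.

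All 17 of these cells came from the ND mice, 7 of 23 T-set cells in Egr2fl/fl (30.4%, 13.2 to 52.9) and 10 of 30 in Lyz2Cre/+.Egr2fl/fl (33.3%, 17.3 to 52.8). In the CDA-HFD mice there were 0 of 17 and 0 of 21. Over both CDA-HFD mice, 0 of 12071 cells is fewer than the 17 of 3313 found on ND, with the same limits of 1 mouse per group. They were not the deepest cells, with a median of 6044 counts, and 1 of the 17 held at least 4 of 8 myeloid genes (Csf1r, C1qa, C1qb, C1qc, Cd68, Lyz2, Ccr2 and S100a8).

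The 12 cells of both rules with Trac held another mix of genes. This is a description, since the division by Trac followed the values, and Nkg7, Gzmb, Ncr1 and Klra8 are NK rule genes. Cxcr6, a chemokine receptor of liver-resident lymphocytes, was counted in 12 of 12 (548 CPM), Thy1 in 11, Nkg7 in 12 and Gzmb in 10 (455 CPM), and Ncr1 and Klra8 in 0. Il4 was counted in 5 of 12 cells (178 CPM) and Zbtb16, the factor known for innate-like T cells, in 4 (116 CPM), all of them from the ND mice, 3 and 2 cells for Il4 and 2 and 2 for Zbtb16. The 4 cells from the CDA-HFD mice held Cd8a in 4 of 4, and the 8 from the ND mice in 0 of 8. One of the 12, a cell of the ND Lyz2Cre/+.Egr2fl/fl mouse with 46427 counts, carried the plasma cell gene Jchain at 1638 counts and is 1 of the cells in which transcripts of another cell type were counted.

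CD8 cells were a larger part of the T set in both CDA-HFD mice than in both ND mice, while as a part of all cells of the mouse they were 2 of 1723 and 4 of 1590 on ND and 10 of 5885 and 8 of 6186 on CDA-HFD. Cells with Cd8a or Cd8b1 and no Cd4 were 2 of 23 (8.70%, 1.07 to 28.0) and 4 of 30 (13.3%, 3.76 to 30.7) in the ND Egr2fl/fl and Lyz2Cre/+.Egr2fl/fl mice, and 10 of 17 (58.8%, 32.9 to 81.6) and 8 of 21 (38.1%, 18.1 to 61.6) in the CDA-HFD mice of the same order. The difference between diets was 50.1 percentage points (17.8 to 74.1) in Egr2fl/fl and 24.8 points (-1.73 to 50.1) in Lyz2Cre/+.Egr2fl/fl, where the interval just held 0. Without the condition on Cd209a the latter was 24.1 points (1.44 to 47.0), without 0. With cells of both rules taken out of the T set the differences were 35.2 points (-7.79 to 65.1) and 8.05 points (-24.5 to 38.1), both with 0 inside. In Lyz2Cre/+.Egr2fl/fl the difference was 39.7 points (10.3 to 65.0) with cells thinned to 3000 counts and 10.7 points (-14.8 to 39.9) with an own-hashtag share of 90% or more. Cells with Cd4 and no Cd8a or Cd8b1 were 4, 11, 2 and 5, cells with both 1, 0, 1 and 1, and cells with neither 16, 15, 4 and 7. The both-rules cells without Trac made up 17 of the 31 cells with neither on ND. Trdc was counted in 4 T-set cells. Foxp3, the factor of regulatory T cells, was counted in 3 cells, all in the CDA-HFD Lyz2Cre/+.Egr2fl/fl mouse.

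Pdcd1 and Ctla4, checkpoint receptors known to restrain activated T cells, were counted in few T-set cells on ND and in more on CDA-HFD. Pdcd1 (PD-1) was at 12.0 CPM (1 of 23 cells) and 0 CPM (0 of 30) in the ND Egr2fl/fl and Lyz2Cre/+.Egr2fl/fl mice, and at 212 CPM (7 of 17) and 127 CPM (4 of 21) in the CDA-HFD mice. Ctla4 was at 0 CPM (0 of 23) and 2.34 CPM (1 of 30) on ND and at 65.0 CPM (7 of 17) and 326 CPM (6 of 21) on CDA-HFD. Both CDA-HFD mice lay above both ND mice for each gene. Nr4a2, a nuclear receptor induced by receptor signalling, was at 4.01 CPM (1 of 23) and 2.34 CPM (1 of 30) on ND against 165 CPM (9 of 17) and 107 CPM (6 of 21), and it was counted in 8.22% of neutrophils. Gzmk, a granzyme of memory CD8 T cells, was at 4.01 CPM (1 of 23) and 23.4 CPM (3 of 30) on ND and at 139 CPM (8 of 17) and 66.3 CPM (3 of 21) on CDA-HFD. Thinned to 3000 counts per cell, Pdcd1 was counted in 0 of the ND cells and 23.7% of the CDA-HFD cells, Ctla4 in 1.89% and 23.7%, Nr4a2 in 0% and 21.1%, and Gzmk in 1.89% and 23.7%.

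**Figure D4:**
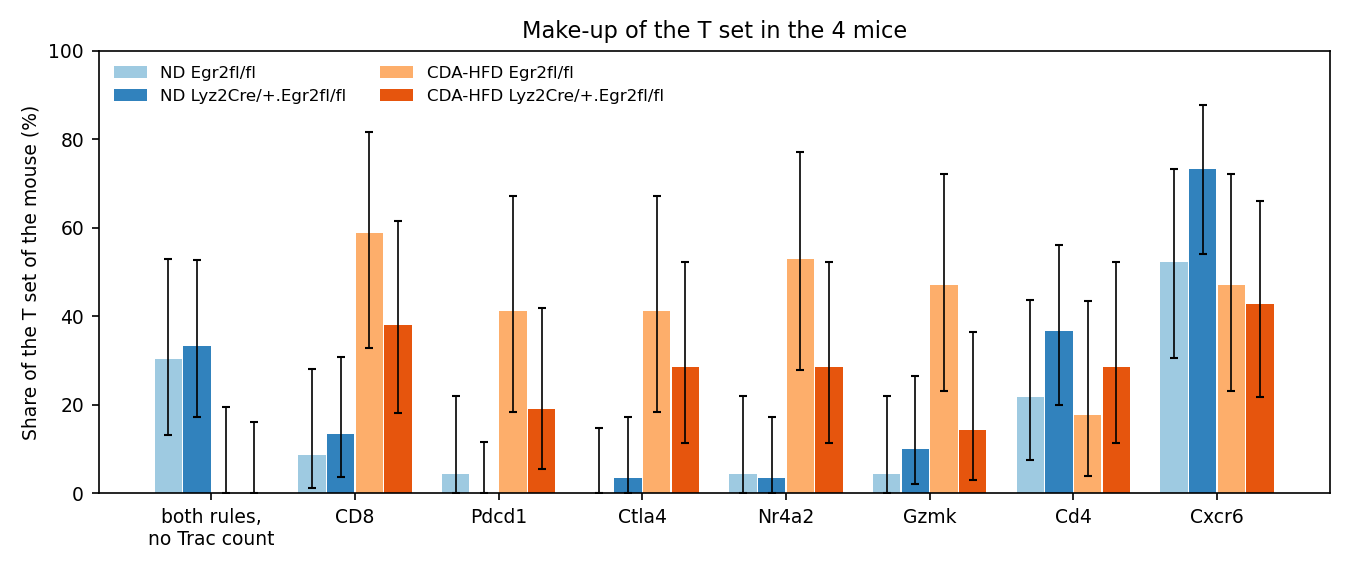
Share of the T set of each mouse, in percent with exact 95% intervals for counting error, that belonged to the both-rules cells without Trac or to CD8, or that held a count of Pdcd1, Ctla4, Nr4a2, Gzmk, Cd4 or Cxcr6. The both-rules cells without Trac appear in the ND mice only, whereas Pdcd1 was counted in 7 of 17 and 4 of 21 cells on CDA-HFD against 1 of 23 and 0 of 30 on ND.

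In the cells of the T rule only, where no both-rules cell enters, the order held for Pdcd1, Ctla4 and Nr4a2. Pdcd1 was at 6.62 CPM (1 of 28 cells) on ND and 124 CPM (9 of 34) on CDA-HFD, Ctla4 at 2.21 CPM (1 of 28) and 186 CPM (12 of 34), and Nr4a2 at 4.41 CPM (2 of 28) and 107 CPM (12 of 34). Gzmk, more than 2-fold higher on CDA-HFD in both genotypes in the whole T set, was not among such genes in these cells. In the CDA-HFD Egr2fl/fl mouse Pdcd1 was found in 6 of 10 CD8 cells and Ctla4 in 5 of 10, and in the CDA-HFD Lyz2Cre/+.Egr2fl/fl mouse both were found in 0 of 8 CD8 cells, with Ctla4 in 4 of 5 CD4 cells. Of the 14 genes for residency and checkpoints, 13 were counted in 10% or more of the T set. Pdcd1, Tox, Ctla4 and Nr4a2 were more than 2-fold higher on CDA-HFD in both genotypes and Itga1 was lower, where 4.74% of 5996 genes were higher and 5.17% lower. The list's median log2 ratio, averaged over genotypes, was 0.79 against -0.02 for all genes. Without the 23 T-set cells that held at least 4 myeloid genes, 2 of the list's 12 remaining genes were higher. The share of all genes that were higher was not computed for this setting. Pdcd1, counted in 8.82% of these 68 cells, was below the minimum of 10%. In them Pdcd1 was still counted in 0 and 0 cells on ND and 3 and 3 on CDA-HFD, Ctla4 in 0 and 1 against 4 and 5, and Nr4a2 in 1 and 0 against 5 and 5. In the cells of the T rule only 5 of 12 were higher and 0 lower, where 6.16% of 6377 genes were higher and 5.03% lower. Of the 9 naive and circulating genes with enough counts, among them Ccr7 and Lef1, 0 passed 2-fold the same way in both genotypes.

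By the fold alone, 33 of 307 genes (10.7%) with 200 counts or more differed by more than 2-fold between the diets in the T set of the Egr2fl/fl mice, and 40 of 376 (10.6%) in the Lyz2Cre/+.Egr2fl/fl mice. Past 2-fold in the same direction in both genotypes were 9 of 294 genes. Gzmb was lower on CDA-HFD, at 56.3 against 1121 CPM in Egr2fl/fl (a ratio of 0.0502, 0.0264 to 0.0873) and 168 against 1161 CPM in Lyz2Cre/+.Egr2fl/fl (0.145, 0.0986 to 0.206). Cd7 was lower at 173 against 841 CPM and 76.5 against 496 CPM, and Xcl1 at 30.3 against 789 CPM and 260 against 962 CPM. The both-rules cells without Trac, all from ND mice, held these genes at 5904, 3371 and 4548 CPM. Without those cells Cd7 turned to higher on CDA-HFD, with log2 ratios of 1.59 and 1.08, while Xcl1 and Gzmb were at -3.16 and -1.40 in Egr2fl/fl and turned to 2.46 and 0.30 in Lyz2Cre/+.Egr2fl/fl. Of the NK receptors and adaptors, 8 of 13 were lower on CDA-HFD in both genotypes in the T set, against 5.17% of all genes. Without those cells 1 of 10 was lower, a setting for which the share of all genes was not computed. In the cells of the T rule only 0 of 9 passed 2-fold in either direction in both genotypes, where 6.16% of 6377 genes were higher and 5.03% lower.

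Higher on CDA-HFD in both genotypes were Sat1, Ifitm2, Apoe, Noct, Ifitm3 and Rgs2. Sat1, an enzyme of polyamine breakdown, was at 776 against 220 CPM in Egr2fl/fl (3.52, 2.59 to 4.85) and 750 against 236 CPM in Lyz2Cre/+.Egr2fl/fl (3.17, 2.44 to 4.13). Rgs2, a brake on G protein signals, was at 711 against 344 CPM and 1071 against 232 CPM, and Noct at 663 against 304 CPM and 617 against 236 CPM. Apoe, a lipoprotein gene of macrophages, was at 5832 against 705 CPM and 3325 against 1426 CPM, yet it was counted in 6 and 1 cells of the first pair of mice and 4 and 2 of the second. Some T-set cells also held myeloid transcripts. Of the 8 myeloid genes, 4 or more were counted in 23 of the 91 T-set cells (3 of 23 and 7 of 30 on ND, 8 of 17 and 5 of 21 on CDA-HFD), in 1 of 71 NK-set cells and in 74.0% of the other cells, and these 23 cells had a median of 16957 counts against 6978.5 for the other 68. In them Apoe stood at 5474 CPM and Sat1 at 762 CPM, and in the other 68 at 215 and 182 CPM. The 12 macrophage markers summed to between 224 and 2210 CPM over the 4 mice's T sets, 27.0 to 437 CPM over the NK sets and 4637 to 30636 CPM over the other cells. The 11 dendritic cell markers, MHC class II genes and Cd74 among them, summed to between 4650 and 25795 CPM over the T sets (18562 CPM pooled), 185 to 2708 CPM over the NK sets and 19587 to 31835 CPM over the other cells, and to 9350 CPM in the T set without the 23 cells. Cd74, which helps load MHC class II, was counted in 28 of 91 T-set cells and in 9 of the 68 without 4 myeloid genes. Of the 11, Cd209a was at 0 in both sets by the rule, and Clec9a was at 0 in the NK set. The Kupffer cell gene Clec4f was at 0 in both sets, and C1qa was counted in 7 T-set cells and 0 NK-set cells. The table holds no value from 1 up to a limit for some genes, so that 0 can stand for a low count, and the lowest values above 0 were 8 for Clec4f, 7 for C1qa, 18 for Apoe, 11 for Lyz2, 22 for S100a9, 8 for Gzma, 6 for Xcl1 and 6 for Ccl5. Without the 23 cells the log2 ratios in Egr2fl/fl and Lyz2Cre/+.Egr2fl/fl stayed past 2-fold for Sat1 (1.42 and 2.41) and Ifitm2 (1.43 and 1.21). They did not in both genotypes for Noct (0.07 and 1.39), Rgs2 (0.60 and 2.79) and Ifitm3 (1.36 and -0.21), and Apoe was at 0 in both Lyz2Cre/+.Egr2fl/fl mice. What part the myeloid and dendritic transcripts had in these values was not tested beyond that.

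Between genotypes, 24 of 401 genes (5.99%) passed 2-fold in the T set on ND and 22 of 278 (7.91%) on CDA-HFD, and 3 of 261 did so the same way on both diets. All 3 are abundant in myeloid cells. S100a8 was higher in Lyz2Cre/+.Egr2fl/fl (904 against 132 CPM on ND and 1963 against 485 CPM on CDA-HFD), as was S100a9, which was counted in 3 cells against 0 on ND and in 3 against 1 on CDA-HFD. Lyz2 was lower, at 307 against 2824 CPM on ND and 1479 against 4753 CPM on CDA-HFD. In the other cells S100a8 was at 1700 against 825 CPM on ND and 1839 against 1765 CPM on CDA-HFD, and Lyz2, the locus that carries Cre, at 4079 against 9036 CPM and 5891 against 11047 CPM. No T-cell gene was among those that passed on both diets. Only 261 of the 25909 genes in the matrix had enough counts to be compared on both, so most genes were not covered. Egr2 itself was counted in 3 of 91 T-set cells (5.44 CPM) and 3 of 71 NK-set cells (14.1 CPM), too few to compare genotypes, against 1731 of 15222 other cells (27.5 CPM).

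In the NK set Ccl5, a chemokine stored by cytotoxic cells, was counted in 71 of 71 cells at 21730 CPM, and Nkg7, a granule gene of the rule, in 71 of 71 at 4335 CPM. Of the other rule genes, Gzma was at 10714 CPM (62 of 71), Gzmb at 1861 CPM (54 of 71) and Prf1 at 1030 CPM (63 of 71). Fcer1g and Tyrobp, adaptors that NK cells share with myeloid cells, were at 3259 and 3001 CPM. Ly49 receptors were each found in a part of the cells, Klra8 in 39, Klra9 in 39, Klra4 in 38 and Klra7 in 25 of 71. Counts of Eomes or Itga2 without Itga1, Cxcr6 or Il7r marked 39 cells (54.9%), the reverse marked 9 (12.7%), both marked 2 and neither marked 21. Of the 9 cells, 6 were in the ND Egr2fl/fl mouse (of 33), 0 in the ND Lyz2Cre/+.Egr2fl/fl mouse (of 6), 1 in the CDA-HFD Egr2fl/fl mouse (of 18) and 2 in the CDA-HFD Lyz2Cre/+.Egr2fl/fl mouse (of 14). The proliferation gene Mki67 was counted in 3 cells and Pclaf in 7, and 3 and 6 of these were in the ND Egr2fl/fl mouse.

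Among the NK set's abundant genes, Ccl5 differed little between the diets in Egr2fl/fl. On CDA-HFD Gzma was lower in Egr2fl/fl, and Prf1 and Ccl5 were lower in Lyz2Cre/+.Egr2fl/fl. Per mouse, in the order ND Egr2fl/fl, ND Lyz2Cre/+.Egr2fl/fl, CDA-HFD Egr2fl/fl and CDA-HFD Lyz2Cre/+.Egr2fl/fl, Ccl5 was at 21424, 28835, 21979 and 19913 CPM, and Prf1 at 1081, 1533, 1065 and 703 CPM. Gzma was at 13360, 8561, 7075 and 8351 CPM. Past 2-fold between the diets in Egr2fl/fl were 12 of 249 genes (4.82%), and between the genotypes on CDA-HFD 7 of 153 (4.58%), while the ND Lyz2Cre/+.Egr2fl/fl mouse had too few NK cells (6) for the count of all genes past 2-fold. The lists were compared in both genotypes all the same, with those 6 cells as the ND side of Lyz2Cre/+.Egr2fl/fl. Of 9 cytotoxic effectors with enough cells, 0 passed 2-fold in the same direction in both genotypes, and of 11 maturation genes 0, where 6.16% of 4331 genes were higher and 7.13% lower. Cma1, the mast cell protease gene found here in NK cells, was at 479, 376, 412 and 152 CPM.

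Single genes of other lists were past 2-fold in the same direction in both genotypes, with the 6 cells as 1 of the ND sides. Lower were 1 of 20 NK receptors and adaptors (Ncr1) and 1 of 14 lymphocyte transcription factors (Tbx21), shares near or below the 7.13% of all genes, so that these counts say nothing about the lists. In the same order of mice, Ncr1, a rule gene, was at 1105, 1099, 402 and 409 CPM (32 of 33, 6 of 6, 11 of 18 and 12 of 14 cells). Tbx21 was at 336, 318, 131 and 114 CPM. Of 5 proliferation genes 2 were lower, Top2a and the tubulin gene Tubb5, the latter at 715, 781, 201 and 57.0 CPM, and Gata3 was lower too. Cxcr4, 1 of 6 chemokine receptors to be higher, was at 46.3, 28.9, 261 and 295 CPM. Of 7 residency and checkpoint genes, Rgs1 and Nr4a2 were higher and Entpd1 was lower, where 6.16% of all 4331 genes were higher. In the other cells Cxcr4, Rgs1 and Nr4a2 were likewise higher in both genotypes and Entpd1 was lower. Tcf7 was also higher in the NK set, with 0 counts in the 6 cells. The macrophage marker Cd68, 1 of 2 with enough cells, was higher too, at 23.2, 0, 70.3 and 276 CPM (4, 0, 2 and 2 cells), and its part in the other values was not tested.

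Ccl3 and Ccl4, chemokines that activated NK cells release, were higher on CDA-HFD. On ND Ccl3 stood at 394 and 752 CPM, and on CDA-HFD at 2231 and 1805 CPM, a ratio of 5.66 (4.46 to 7.23) in Egr2fl/fl. Ccl4 stood at 1093 and 2545 CPM on ND and at 3136 and 9814 CPM on CDA-HFD, 2.87 (2.43 to 3.38) in Egr2fl/fl. Both CDA-HFD mice were above both ND mice for each gene. Ifng, the main NK cytokine, was at 100 CPM (10 of 33 cells) and 86.8 CPM (1 of 6) on ND and at 322 CPM (7 of 18) and 304 CPM (5 of 14) on CDA-HFD. The 3 were those of 8 cytokine and chemokine genes that were more than 2-fold higher in both genotypes, where 6.16% of 4331 genes were, again with 6 cells on the ND side of Lyz2Cre/+.Egr2fl/fl. The other cells had the same order, with Ccl3 at 124 and 156 CPM on ND and 602 and 602 CPM on CDA-HFD, and Ccl4 at 172, 160, 687 and 676 CPM. Neutrophils held Ccl3 at 1336 CPM, more than the NK set's 1084 CPM, and Ccl4 at 1470 against 3444 CPM.

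Immediate early genes, which cells switch on within minutes of a stimulus and also of tissue handling, were higher on CDA-HFD in both sets. Of 11 such genes, 8 were more than 2-fold higher in both genotypes in the T set (Fos, Fosb, Jun, Junb, Nr4a1, Atf3, Dusp1 and Zfp36) and 7 in the NK set (Fos, Fosb, Jun, Junb, Egr1, Nr4a1 and Dusp1), 0 lower in either, against 4.74% and 6.16% of all genes. The Lyz2Cre/+.Egr2fl/fl arm of the NK set rests on 6 ND cells, with Fosb at 0 of 6. Fos in the T set was at 164 and 227 CPM on ND and 542 and 1122 CPM on CDA-HFD. Nr4a1 in the NK set was at 11.6 CPM (3 of 33 cells) and 28.9 CPM (1 of 6) on ND. On CDA-HFD it was at 332 CPM (5 of 18) and 247 CPM (8 of 14). In the other cells the same 8 genes as in the T set were more than 2-fold higher on CDA-HFD, where 3.56% of 6764 genes were higher and 4.05% lower, with Fos at 289 and 231 CPM against 1051 and 1223 CPM, and Nr4a2 at 6.50 and 4.35 against 70.1 and 55.7 CPM. Nr4a2 and Ccl3 were thus higher on CDA-HFD in the other cells too. Pdcd1 and Ctla4 were counted in 37 and 18 of the 15222 other cells, too few to compare the diets there. Handling differed with diet in the number of cells loaded, and diet and handling cannot be told apart. Of 10 heat shock genes, 0 were higher in both genotypes in the T set, 3 in the NK set (Hspa1a, Hspa1b and Dnajb1) and 2 in the other cells (Hspa1a and Hspa1b).

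**Figure D5:**
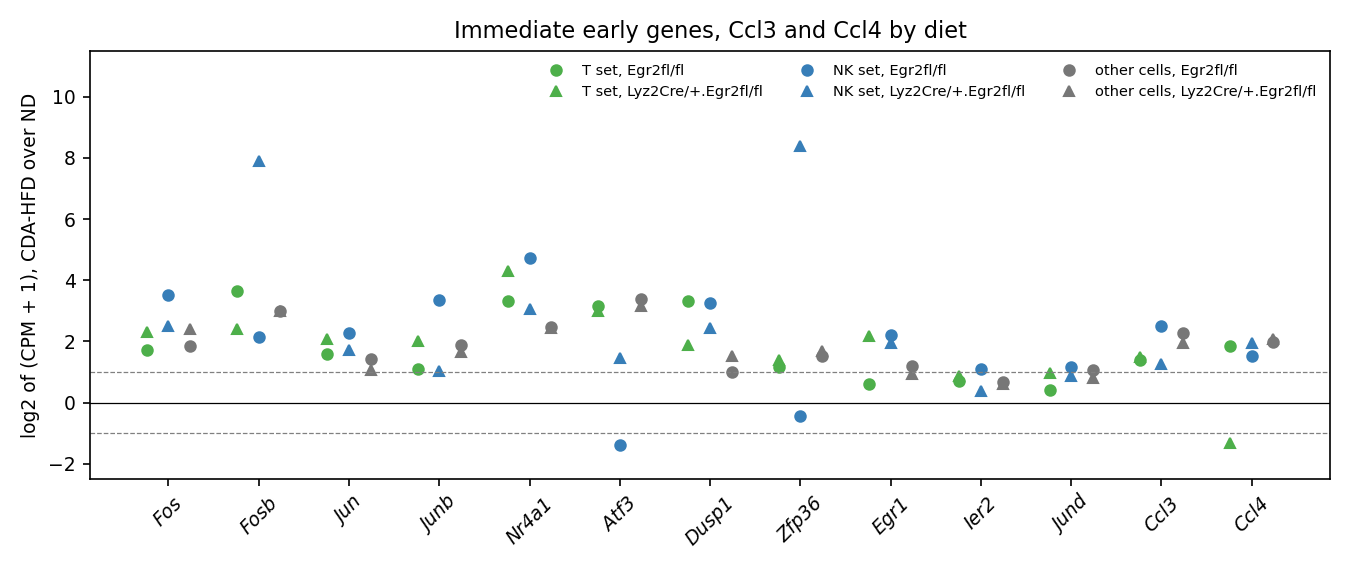
Ratio of CDA-HFD to ND, as log2 of CPM with 1 CPM added, for 11 immediate early genes, Ccl3 and Ccl4 in the T set, the NK set and all other cells, with circles for Egr2fl/fl, triangles for Lyz2Cre/+.Egr2fl/fl and dashed lines at 2-fold. The NK triangles rest on 6 ND cells, and those of Fosb and Zfp36, at 0 in these cells, are set by the 1 CPM added. Of the 11 immediate early genes 8 in the T set, 7 in the NK set and 8 in the other cells lie above 2-fold in both genotypes.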

How the data were processed

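Liver cells of 4 mice were sequenced on BD Rhapsody with TAS-Seq in 1 mRNA and 1 hashtag library. The authors mapped reads to the GRCm38 transcriptome, assigned barcodes to mice by hashtag and deposited a table of counts per gene and barcode (the submitters' notes name R 4.2.1 and Seurat 4.1.1). The sources used here do not say whether these are reads or molecules, and 34 genes have low values set to 0. Of 16786 barcodes, 15394 were given to a mouse and 1392 were named doublets by the authors and left out. No further doublet caller was run, and 7 hashtag columns belong to no sample here. The fourth mouse's hashtag is numbered differently in its label and was matched to the remaining column.

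Counts were summed per set and mouse and divided by the total to give CPM. With 1 mouse per group there was no test and no p-value. Shares have exact (Clopper-Pearson) 95% intervals and ratios exact binomial intervals. The Newcombe intervals of differences were built by Newcombe's way of combining limits, here with the exact limits of the 2 shares. They cover counting error only, and those of ratios are too narrow, since counts cluster in cells. Shares of cells were also computed after thinning to 3000 counts. Neutrophils were cells with at least 3 of 5 marker genes. Ratios between mice were taken for genes with 200 counts or more over both mice that 10% of the cells of either mouse held. The planned minimum of 30 cells per mouse was met by 0 of 8 comparisons, so 10 was used (6 comparisons), a choice made after seeing the data. List genes needed a count in 10% of the cells, with 1 CPM added. Named genes were those of the lists, the 6 largest differences past 2-fold the same way in both genotypes or diets, and the 10 leading genes of each set, counted in 20% or more of its cells. Members and lists were chosen with earlier results of these data known. Python 3.11.15, scipy 1.17.1 and edgeR 4.0.16 (TMM scaling, an alternative) were used, and the ratio computation was tested on simulated data. One gene of the lists is not reported here.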

Additional observations from a re-analysis of the deposited data

Results flagged for a closer look

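Lymphocyte genes were also found in barcodes outside the comparisons. Among 1387 barcodes that the authors named doublets and that passed the same mitochondrial limit, 13 met the T rule (0.937%, exact 95% interval 0.500 to 1.60) and 9 met the NK rule (0.649%, 0.297 to 1.23), beside 0.592% and 0.462% of the barcodes given to a mouse. The T-rule barcodes among them had a median of 22139 counts against 8672 in the T set, and 9 of the 13 held at least 4 of the 8 myeloid genes against 23 of 91.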

How the results depend on the processing

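No paired analysis was possible because each group was 1 mouse and the labels give no replicate numbers, and no mouse could be left out of a group for the same reason. Of the alternatives for shares, counts of genes and list counts, 122 values stayed within the limits set for the same result and 29 moved. Of the ratios of named genes, 265 stayed, 81 moved and 12 reversed, and 36 of those that stayed were genes at 0 in both mice. A share or ratio counted as moved outside its counting interval, so a call could change without it, and a count of genes when it changed by more than 1.5 times. The T set genotype difference on ND (0.552) was -0.0139 with at least 2 marker genes and 1.24 (0.00900 to 2.55, without 0) with an own-hashtag share of 90% or more, and that on CDA-HFD (0.0506) was then -0.0162. The T set difference between diets in Egr2fl/fl was -1.73 percentage points with at least 2 marker genes, -1.79 without the Cd209a condition and -0.384 with the NK rule applied first. In Lyz2Cre/+.Egr2fl/fl the last setting gave -0.762 for the T set and -0.936 for the NK set, which was -0.733 with at least 4 marker genes, and both NK intervals left out 0.

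Genes past 2-fold numbered, for the T set between diets in Egr2fl/fl and Lyz2Cre/+.Egr2fl/fl and between genotypes on ND and CDA-HFD, 7, 9, 3 and 6 with at least 1000 counts, 256, 296, 221 and 198 with at least 50, and 13, 25, 5 and 14 without cells of 4 or more myeloid genes. For the NK set between diets in Egr2fl/fl and between genotypes on CDA-HFD they numbered 0 and 1 with at least 1000 counts and 190 and 59 with at least 50, and the second was 3 by the mean over cells and 4 without the myeloid-gene cells. The T set count between diets in Egr2fl/fl was 15 with at least 4 marker genes and 16 without the both-rules cells without Trac. Residency and checkpoint genes higher were 2 of 12 without the myeloid-gene cells and 6 of 13 both with at least 4 marker genes and without the both-rules cells without Trac. NK receptors lower were 1 of 11 with at least 4 marker genes and 1 of 10 without the both-rules cells without Trac. The share of all genes was not computed for these settings, so these list counts have no share to be set against.

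Reversed log2 ratios of CDA-HFD to ND in the T set were, without the myeloid-gene cells, S100a8 at -0.51 in Egr2fl/fl and Ifitm3 at -0.21 in Lyz2Cre/+.Egr2fl/fl. Without the both-rules cells without Trac they were Cd7 at 1.59 in Egr2fl/fl and, in Lyz2Cre/+.Egr2fl/fl, Gzmb at 0.30, Cd7 at 1.08, Xcl1 at 2.46, Ccl4 at 1.05 and Ccl5 at 1.48. With at least 4 marker genes they were Cd7 at 0.14, Xcl1 at 1.05, Ccl4 at 0.59 and Ccl5 at 1.28 in Lyz2Cre/+.Egr2fl/fl. The cause was not tested, beyond that these settings leave out cells. The NK-first order and the set without the both-rules cells were chosen after seeing the data. Sets of 6 to 33 cells per mouse limit every ratio.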
